A study of Sus scrofa with 5 samples.

Results

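The 10 genes described here make or mark fibrous connective tissue: the fibrillar collagen chains COL1A1, COL1A2, COL3A1, COL5A1 and COL5A2, the small proteoglycans DCN and LUM, the matrix protein POSTN, the transcription factor TWIST1 and the intermediate filament protein VIM. They are 10 of 30029 genes in the count files of pig blastoids and of 29886 gene symbols in the expression table of pig embryonic stem cells. The list was drawn up with results of these cells known, so it was chosen by measured values, and the levels of its members across the gated cells below are a description with no test. Blastoids are blastocyst-like structures assembled in culture from embryonic stem cells. Here 2 libraries of day 6 blastoids grown from porcine ESCs in iBlastoid medium were measured by single-cell RNA sequencing on the 10x platform, and 3 libraries of pESCs grown in 4FIXY medium by bulk RNA sequencing. The paper made blastoids either in iBlastoid medium throughout or first in 4FXY medium, which is 4FIXY without IWR1. Which of these ways gave the sequenced blastoids is not stated in its methods. The blastoids were picked by hand for a visible cavity and inner mass before they were dissociated. The methods derive the pESCs from parthenogenetic blastocysts and keep them on mitomycin C-treated mouse embryonic fibroblasts, whose RNA can enter a bulk library. Of the 3 library names 1 begins with IVF, and the names also differ in the passage they give. No source states that the 2 blastoid libraries came from separate cultures, so spread between them may be technical.

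Fibrillar collagens are triple helices of long repetitive chains that are folded in the endoplasmic reticulum, secreted as procollagens, trimmed outside the cell and crosslinked into fibrils. COL1A1 and COL1A2 supply the chains of type I collagen, COL3A1 that of type III, and COL5A1 and COL5A2 the chains of type V, which sits inside type I fibrils and helps set their diameter. Decorin and lumican coat the fibrils, periostin links matrix to cells, TWIST1 drives mesenchymal fates, and vimentin is the filament protein of mesenchymal cells, although many other cells in culture also hold it.

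In the pig genome (Sscrofa11.1, RefSeq annotation) the members lie on 7 chromosomes, and 2 pairs are neighbors. COL3A1 and COL5A2 (chr15:93611856-93981131, minus strand) end toward each other 16177 bases apart. DCN (chr5:91678601-91713925) and LUM (chr5:91748871-91756381) follow each other on the plus strand with 34945 bases between them. COL1A1 lies at chr12:26379087-26397180 on the minus strand and COL1A2 at chr9:74174484-74210407 on the plus strand. The 120 bases before the annotated start of the type I chains are shown because these 2 genes separated from each other in 1 group of cells below. Capitals mark CCAAT, read on either strand, and TATAAA. The windows come from the RefSeq assembly Sscrofa11.1 and are written 5′ to 3′ on the strand of the gene.
COL1A1 (chr12:26397181-26397300, minus): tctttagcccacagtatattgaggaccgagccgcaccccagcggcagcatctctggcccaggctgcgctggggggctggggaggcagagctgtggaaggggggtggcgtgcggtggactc
COL1A2 (chr9:74174364-74174483, plus): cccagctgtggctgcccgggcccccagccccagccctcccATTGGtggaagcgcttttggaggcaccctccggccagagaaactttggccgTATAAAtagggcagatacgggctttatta

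The COL1A2 window held TATAAA 29 bases and the reversed CCAAT 80 bases before the start, counted to the first base of the match. Neither string occurred in the windows of the other 8 members searched, while 20.23% of 19559 genes held CCAAT and 3.4% held TATAAA in a window of this length. The E-box pattern CANNTG, the kind of site that TWIST1 and its relatives bind, was found before 5 of these 9 members and before 36.36% of all genes. COL1A1 has 2 annotated starts 139 bases apart, POSTN has 2 that lie 98 bases apart, and COL5A2 has 3 spread over 222441 bases. Their windows lie before the farthest start. The bases before the inner starts were not searched, so whether COL1A1 holds either string there is not known from these windows. A match is a string of letters and not evidence of binding.

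Cells were barcodes with at least 11223 UMIs in library 1 (7369 cells) and at least 9805 in library 2 (8175 cells), where a UMI is a counted RNA molecule. The median cell held 29728 and 27588 UMIs, and 9 cell barcodes occurred in both libraries, 0.122% of library 1. Cells were gated on 5 genes. A cell passed a gate with at least 3 UMIs of the gene, at least 100 CPM (counts scaled to a total of 1000000) and at least 2 times the CPM of that gene in the empty droplets of its library. GATA6 alone took 326 and 255 cells, GATA6 with MYL7, an atrial myosin light chain, 242 and 149, MYL7 alone 132 and 114, the pluripotency factor POU5F1 alone 832 and 971, GABRP, a GABA receptor subunit, alone 1514 and 1444, and SCRG1 alone 36 and 36. The other cells passed several gates (137 and 121) or none (4150 and 5085). Empty droplets were barcodes of 10 to 100 UMIs, 118122 in library 1 and 165131 in library 2, and their CPM gives the RNA that was free in the suspension. Free RNA is only a part of the counts of a cell. A gate level under that of the droplets therefore does not show that the gene is silent in its cells.

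Marker lists described what the gates held. In the GATA6 gate without MYL7 the cardiac list was below its level in empty droplets for 9 of 9 genes in both libraries, and in the gate with MYL7 it was above for 9 of 9, with sums of 3947 and 3185 CPM. GATA6 is also a hypoblast gene. The paper regarded clusters of blastoid cells with GATA6 and GATA4 as hypoblast-like, and described NID2 as specific to them. GATA4 was not among the markers used here, and how far those clusters and the GATA6 gates share cells was not tested. The 7 hypoblast markers summed to 301 and 462 CPM in GATA6-gated cells without MYL7 against 321 and 326 in empty droplets, and 5 of 7 in library 1 and 4 of 7 in library 2 were above the droplets. Most of the sum was APOA1, at 158 and 317 CPM against 307 and 314, and NID2, a basement membrane protein, at 134 and 143 CPM against 9.76 and 4.69. The hypoblast transcription factors SOX17, FOXA2 and HNF4A ranged from 0.163 to 1.59 CPM there, against 0 to 0.61 in empty droplets, and the part of such cells in the collagen levels was not tested. The SCRG1 gate held all 7 neural crest markers above empty droplets, with SOX10 at 103 and 152 CPM. The POU5F1 gate held all 5 pluripotency markers above empty droplets, with sums of 466 and 677 CPM. Epithelial genes such as KRT8 summed to 6524 and 7743 CPM in the GATA6 gate without MYL7, under the 15425 and 14193 CPM of the empty droplets, and to 18049 and 17847 CPM in the GABRP gate. Endothelial markers summed to 115 and 101 CPM in the GATA6 gate without MYL7 against 11 and 9.81 CPM in empty droplets. Nearly all of this was the angiopoietin receptor TEK, at 91.9 and 84.0 CPM against 3.05 and 3.41, and the VEGF receptor KDR, at 19.7 and 13.7 against 1.22 and 2.56. The cadherin CDH5, which defines endothelium, was at 0.341 and 0 CPM, and the part of such cells in the collagen levels was not tested. Blood markers summed to 0.341 and 0.651 CPM there.

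The collagen genes COL1A1, COL1A2, COL3A1 and COL5A2 were highest in GATA6-gated cells without MYL7 and lower in those with MYL7, COL5A1 overlapped between these gates, and all 5 were below the empty droplets in POU5F1-gated cells. Of the 10 members, 7 had their highest mean over libraries in the GATA6 gate without MYL7, COL5A1 and TWIST1 in the gate with MYL7, and VIM in the SCRG1 gate. All 10 members were above the empty droplets in both libraries in the GATA6 gates with and without MYL7 and in the MYL7 gate, 3 of 10 (COL1A2, COL5A2 and VIM) in the SCRG1 gate, 1 of 10 (POSTN) in the GABRP gate and 0 of 10 in the POU5F1 gate. How many of all genes were highest in a gate or above the droplets there was not counted. These counts of chosen members therefore have no background beside them and are a description only. The GATA6 gates with and without MYL7 together held 7.71% of cells in library 1 and 4.94% in library 2, and between 24.27% (POSTN, library 2) and 71.82% (DCN, library 2) of all UMIs of a member found in cells.

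**Figure D1:**
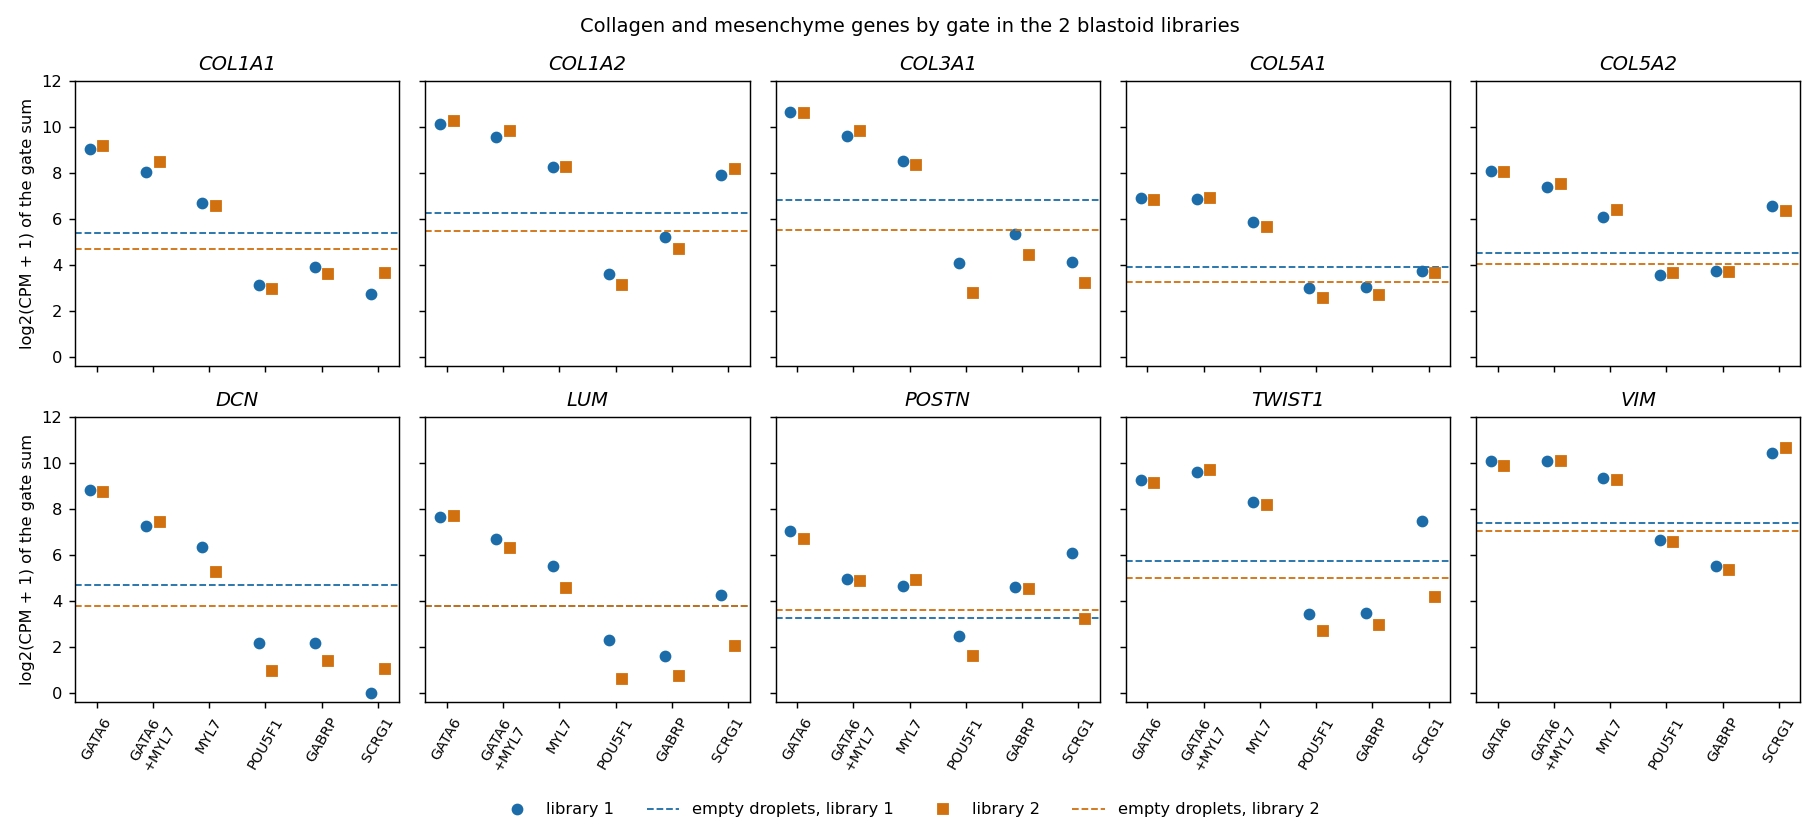
Level of each member as log2(CPM + 1) of the summed counts of a gate, for library 1 (circles) and library 2 (squares), with the level in empty droplets of each library as a dashed line. The GATA6 and MYL7 gates lie above the lines for all 10 genes, the POU5F1 gate lies below them, and the SCRG1 gate lies above them in both libraries for COL1A2, COL5A2 and VIM.

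COL1A1 measured 521 CPM in library 1 and 578 in library 2 in the GATA6 gate without MYL7, 266 and 352 in the gate with MYL7, and 104 and 93.7 in the MYL7 gate. It was at 7.83 and 6.91 CPM in the POU5F1 gate, 14.2 and 11.3 in the GABRP gate and 5.82 and 11.6 in the SCRG1 gate, against 40.9 and 25.2 in empty droplets. The GATA6 and MYL7 gates did not overlap with each other, and the other 3 gates stayed under the free RNA, where the ranges of the SCRG1 gate overlapped with those of the GABRP and POU5F1 gates.

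COL1A2, the partner chain, measured 1133 and 1224 CPM in the GATA6 gate without MYL7, 748 and 918 with MYL7, and 311 and 305 in the MYL7 gate. The SCRG1 gate followed closely with 240 and 285 CPM, while the GABRP gate had 36.2 and 25.4 and the POU5F1 gate 11.2 and 7.75, against 75 and 43.5 in empty droplets. No neighboring gates overlapped in this order, and the SCRG1 gate was thus high for COL1A2 while it was low for COL1A1.

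COL3A1 measured 1607 and 1546 CPM in the GATA6 gate without MYL7, 790 and 899 with MYL7, and 370 and 329 in the MYL7 gate. In the SCRG1 gate it was at 16.5 and 8.42 CPM, in the GABRP gate at 39.9 and 20.7 and in the POU5F1 gate at 16.0 and 5.99, against 114 and 45.6 in empty droplets. Its order was that of COL1A1, with overlap between the SCRG1 and POU5F1 gates.

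The type V chains differed in how they followed type I. COL5A1 measured 121 and 114 CPM in the GATA6 gate without MYL7 and 118 and 121 with MYL7, which overlapped, and 57.1 and 50.1 in the MYL7 gate. In the POU5F1, GABRP and SCRG1 gates it ranged from 4.90 to 12.6 CPM, around the 14 and 8.53 of empty droplets. COL5A2 measured 275 and 266 CPM in the GATA6 gate without MYL7, 168 and 181 with MYL7, and 67.7 and 82.4 in the MYL7 gate. In the SCRG1 gate COL5A2 reached 95 and 80 CPM, against 22 and 15.8 in empty droplets, and overlapped with the MYL7 gate, whereas its neighbor on chromosome 15, COL3A1, stayed under the free RNA there.

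The proteoglycans DCN and LUM, neighbors on chromosome 5, were highest in the GATA6-gated cells without MYL7, which held 51.7% and 58.9% of the DCN UMIs in cells and 43.1% and 55.0% of the LUM UMIs. Cells that passed no gate held 24.1% and 19.4% of the DCN UMIs and 24.1% and 24.4% of the LUM UMIs. DCN measured 447 and 425 CPM in the GATA6 gate without MYL7, 153 and 173 with MYL7, 79.8 and 37.8 in the MYL7 gate, and no more than 3.52 in the POU5F1, GABRP and SCRG1 gates, against 25 and 12.8 in empty droplets. In the SCRG1 gate DCN had 0 UMIs in library 1, which allows up to 2.91 CPM, and 1 UMI in library 2. LUM measured 198 and 204 CPM in the GATA6 gate without MYL7, 103 and 78.1 with MYL7 and 44.4 and 22.9 in the MYL7 gate. In the POU5F1, GABRP and SCRG1 gates LUM ranged from 0.532 to 18.4 CPM, against 12.8 and 12.8 in empty droplets. The level without MYL7 was 2.92 and 2.46 times that with MYL7 for DCN and 1.92 and 2.62 times for LUM.

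POSTN measured 132 and 101 CPM in the GATA6 gate without MYL7 and 30.4 and 28.6 with MYL7, a ratio of 4.35 and 3.53, larger in both libraries than that of any other member. It was also the member above free RNA in the GABRP gate, at 23.3 and 22.2 CPM against 8.54 and 11.1 in empty droplets. In the GABRP gate 34.7% of cells (95% exact binomial interval 32.3% to 37.2%) in library 1 and 32.5% (30.1% to 35.0%) in library 2 had a POSTN UMI. The shares in the POU5F1 gate, whose median cell was deeper (38278 and 34489 UMIs against 27471 and 25609), were 9.5% (7.59% to 11.7%) and 5.15% (3.85% to 6.73%). Intervals cover counting error only. POSTN in the SCRG1 gate was at 66.9 CPM in library 1, where the top 3 of 36 cells held 78.3% of its UMIs, and at 8.42 in library 2.

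TWIST1 measured 604 and 555 CPM in the GATA6 gate without MYL7 and a higher level, 767 and 829, with MYL7, with no overlap between them. For COL5A1 these gates overlapped, and the other 4 collagens were higher without MYL7. It measured 314 and 287 CPM in the MYL7 gate and between 5.54 and 10.3 in the POU5F1 and GABRP gates, against 53.1 and 31.1 in empty droplets. In the SCRG1 gate the libraries disagreed, at 174 and 16.8 CPM, and in library 1 the top 3 of 36 cells held 58.3% of the 180 UMIs.

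VIM was highest in the SCRG1 gate, at 1368 and 1618 CPM, above 1076 and 1096 in the GATA6 gate with MYL7 and 1075 and 936 without. The MYL7 gate followed with 653 and 613, then the POU5F1 gate with 99.7 and 93.4 and the GABRP gate with 45.3 and 39.2, against 168 and 129 in empty droplets. In single cells 36 of 36 and 33 of 36 cells of the SCRG1 gate had a VIM UMI. The POU5F1 gate was below the empty droplets in CPM, at 0.593 and 0.725 times their VIM level. In that gate DCN was at 0.139 and 0.074 times its droplet level. The part of free RNA in the VIM counts was not tested. Of the POU5F1-gated cells 76.9% (73.9% to 79.7%) and 75.8% (73.0% to 78.5%) had a VIM UMI, against 38.2% (35.8% to 40.7%) and 32.8% (30.4% to 35.3%) in the GABRP gate.

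Since the gates differed in depth, each cell was also thinned to 9805 UMIs, which left out no cell. COL1A2 was then found in 92.3% and 89.0% of GATA6-gated cells without MYL7, 83.1% and 84.6% with MYL7, 77.8% and 88.9% in the SCRG1 gate, and 6.13% and 5.25% in the POU5F1 gate. Before thinning the shares were 93.6% and 91.0%, 92.1% and 91.3%, 91.7% and 91.7%, and 18.5% and 14.6%. The type III chain COL3A1 was found in 86.8% and 89.4% of GATA6-gated cells without MYL7 and in 13.9% and 8.33% of the SCRG1 gate after thinning, and in 92.9% and 91.0% and 27.8% and 8.33% before. VIM was found in 45.8% and 48.7% of thinned POU5F1-gated cells and in 21.6% and 18.6% of GABRP-gated cells. The median thinned cell held 7 members in both libraries in the GATA6 gate without MYL7, 6 with MYL7, 3 in the SCRG1 gate, and 1 in the POU5F1 and GABRP gates. At least 7 members were seen together in 64.4% and 69.8% of cells of the GATA6 gate without MYL7 and in 40.9% and 43.6% with MYL7. No cell of the SCRG1 gate did so, 0 of 36 in each library, which allows a share of up to 8.33%.

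**Figure D2:**
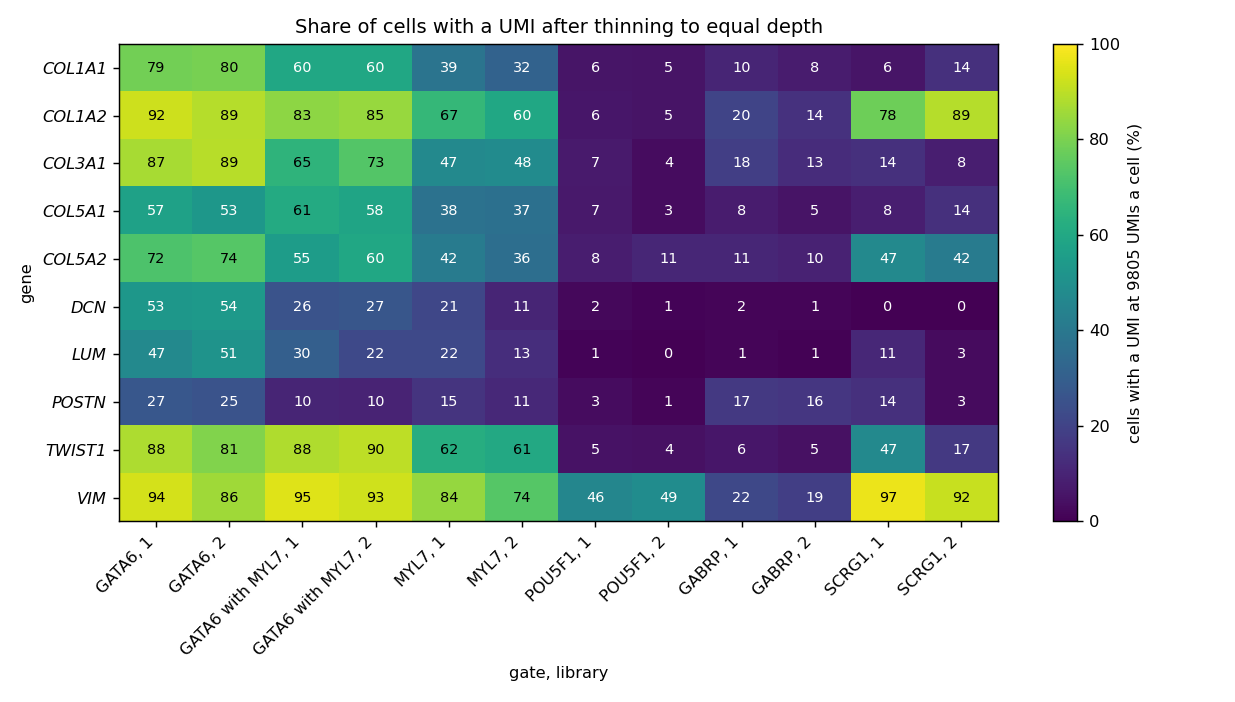
Percentage of cells with at least 1 UMI of each member (rows) by gate and library (columns) after every cell was thinned to 9805 UMIs. COL1A2, COL5A2 and VIM are found in the SCRG1 gate in 41.7% to 97.2% of cells, and COL1A1, COL3A1, COL5A1, DCN and LUM in 0% to 13.9%.

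Not every GATA6-gated cell carried collagen. COL1A1, COL1A2 and COL3A1 summed per cell had a median of 2949 and 3182 CPM in the GATA6 gate without MYL7, with 6.44% and 10.6% of cells under 100 CPM and maxima of 17419 and 19367. With MYL7 the median was 1585 and 1752 CPM and 14.9% and 14.1% of cells were under 100. The MYL7 gate was split, with a median of 300 and 231 CPM. There 32.6% and 39.5% of cells were under 100 CPM, and 33.3% and 28.1% at 1000 or more. GATA6 itself was at 45.2 and 43.9 CPM in the MYL7 gate, against 9.15 and 5.55 in empty droplets. In the SCRG1 gate the sum lay between 23.9 and 634 CPM in library 1 and between 0 and 853 in library 2. At 1000 CPM or more there were 601 cells in library 1 (8.16% of cells) and 447 in library 2 (5.47%). Of these, 43.9% and 48.5% were in the GATA6 gate without MYL7, 23.1% and 20.8% in the gate with MYL7, 7.32% and 7.16% in the MYL7 gate, and 21.3% and 19.9% passed no gate. The POU5F1 gate held 1 and 0 of them, and the SCRG1 gate 0 and 0.

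Within GATA6-gated cells without MYL7, correlations between collagens from cell to cell were higher by rank than those of TWIST1 with the other members. Over 326 and 255 cells the 10 pairs of collagen genes had Spearman correlations of 0.418 to 0.762 in library 1 and 0.422 to 0.773 in library 2. The pair COL1A1 and COL3A1 had 0.762 and 0.773, and the neighbors DCN and LUM 0.544 and 0.593. TWIST1 with the other 9 members ranged from -0.246 to 0.180 and from -0.130 to 0.243, lowest with POSTN in both libraries. On the log2(CPM + 10) scale the Pearson correlation of TWIST1 with COL1A2 was 0.541 and 0.639 and with COL3A1 0.34 and 0.587, and in library 2 both were above that of COL5A1 with COL5A2 (0.448), so the order depends on the measure. In the gate with MYL7, over 242 and 149 cells, the ranges overlapped: Spearman correlations were 0.12 to 0.775 and 0.164 to 0.818 for the collagen pairs, and -0.12 to 0.288 and -0.108 to 0.336 for TWIST1. These are descriptions over cells of 1 library that share its depth and free RNA.

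The type I chains parted in the SCRG1 gate. COL1A2 UMIs per COL1A1 UMI were 2.18 (95% exact counting interval 2.10 to 2.25) and 2.12 (2.03 to 2.2) in the GATA6 gate without MYL7, and 2.81 (2.66 to 2.97) and 2.61 (2.44 to 2.79) with MYL7. The ratio was 1.84 (1.35 to 2.51) and 1.73 (1.24 to 2.42) in empty droplets. In the SCRG1 gate it was 41.3 (18.7 to 114), from 248 and 6 UMIs, in library 1 and 24.6 (13.6 to 49.9), from 271 and 11 UMIs, in library 2. The counts thus did not stand in the ratio of the free RNA there. COL1A2 was spread over 33 of 36 cells in each library, with 20.6% and 21.0% of its UMIs in the top 3 cells. COL3A1 per COL1A2 UMI was 1.42 and 1.26 in the GATA6 gate without MYL7 and 0.069 and 0.030 in the SCRG1 gate.

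**Figure D3:**
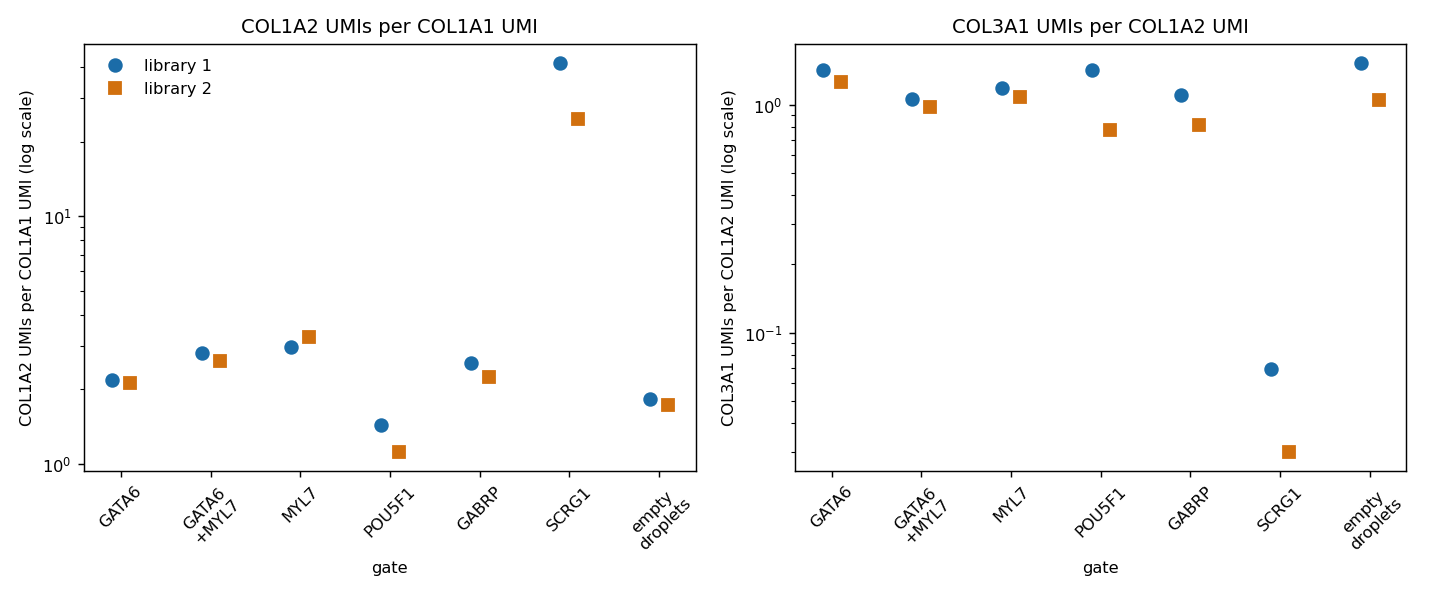
Ratios of summed UMIs between collagen genes by gate and in empty droplets, on log axes, with library 1 as circles and library 2 as squares. COL1A2 per COL1A1 (left) lies between 1.12 and 3.26 in all sources but the SCRG1 gate, where it is 41.3 and 24.6, and COL3A1 per COL1A2 (right) falls to 0.069 and 0.030 in that gate.

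The genes most like COL1A2 over the 12 sums of 2 libraries and 6 gates were SOX6 (Pearson r 0.993 of log2 CPM), ADGRA2 (0.987), BMP1 (0.982), RPL22L1 (0.981), ADAMTS6 (0.981) and SOX12 (0.979), of 7264 genes ranked. BMP1 is the protease that trims the C-terminal end of procollagens, and SOX6 and SOX12 are transcription factors. SOX6 averaged 279 CPM in the GATA6 gate without MYL7, 244 with MYL7, 73.1 in the SCRG1 gate and 5.35 in the POU5F1 gate. Among the members COL5A2 was most like COL1A2 (0.977) and DCN least (0.762). The 6 sums of each library come from 1 preparation, and these correlations are descriptions.

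Other genes of collagen making and of mesenchyme, in 8 lists of 114 genes that were also drawn up with earlier results known, were compared by edgeR's quasi-likelihood test on the 12 sums, with Benjamini-Hochberg adjustment over all 15021 genes tested. In GATA6-gated cells without MYL7 against the mean of the POU5F1, GABRP and SCRG1 gates, 81 of the 101 list genes tested were higher and 4 lower, while 20.6% of all genes tested were higher and 15.9% lower. Since the fold is against a mean of 3 gates, a gene can pass while 1 of the 3 is as high. Because the lists were drawn up with results of these cells known, their counts beside the share of all genes are a description and no test of a list. In both libraries 56 of the 81 were above each of the 3 gates, as were 1675 of all 3088 genes called higher. Out of genes tested, these are 56 of 101 list genes against 11.2% of all genes. The median log2 fold change over all genes was 0.01. The enzymes and chaperones of collagen folding and crosslinking were higher in 19 of 19 cases with a median log2 fold change of 1.31, among them the lysyl hydroxylase PLOD2 (1.85 ± 0.14 SE, adjusted p = 8.9e-08) and the crosslinking oxidase LOX (2.32 ± 0.33, adjusted p = 6.6e-05). The prolyl hydroxylase subunit P4HA3 also rose, at 2.96 and 2.44 CPM against at most 1.55 in the other 3 gates. Of the 19, 16 were above each of the other gates. PLOD1, at 19.1 and 16.1 CPM, was under the 21.3 and 21.05 of the SCRG1 gate. Of the procollagen processing list, 4 of 7 rose with a median of 1.11: ADAMTS2, which trims the N-terminal end (4.03 ± 0.18, adjusted p = 1.5e-10), ADAMTS3, BMP1 (1.48 ± 0.10, adjusted p = 1.6e-08) and PCOLCE (1.79 ± 0.29, adjusted p = 0.00021), an enhancer of BMP1. Of the 4, 3 were above each of the other gates. ADAMTS3, at 23.8 and 31.1 CPM, overlapped with the 12.6 and 25.3 of the SCRG1 gate.

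Small proteoglycans and other matrix proteins rose in 18 of 19 cases, median 2.56. Of the 18, 15 were above each of the other gates. TNC, at 228.5 and 215.8 CPM, was under the 297.9 and 274.5 of the GABRP gate. FBN1, at 24.45 and 21.7, was under the 35.9 and 23.2 of the SCRG1 gate. The microfibril protein FBN2 was at 159 and 155 CPM against 3.01 to 49.4 in the other 3 gates (4.09 ± 0.09, adjusted p = 2.4e-13). FBLN5 and THBS2 also passed the test at low levels, 5.00 and 3.91 CPM and 0.796 and 1.47 CPM, and both had 0 UMIs in the SCRG1 gate. Mesenchymal transcription factors rose in 13 of 14 cases, median 3.59. PRRX1, a limb and mesenchyme factor, was at 74.8 and 62.4 CPM against at most 1.17 in the other 3 gates, SNAI2 rose by 4.66 ± 0.18 (adjusted p = 4.4e-11) and HAND2 by 4.6 ± 0.21 (adjusted p = 2.6e-10). Of the 13, 10 were above each of the other gates. ZEB2, at 115 and 100 CPM, was under the 437 and 476 of the SCRG1 gate, and SNAI1, at 45.5 and 37.6, under its 77.6 and 52.6, while MSX2, at 144 and 125, was under the 159 and 148 of the GABRP gate.

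Of the mesenchymal surface and cytoskeleton list 12 of 14 rose and 1 fell (S100A4), median 1.47, with PDGFRB, a growth factor receptor of mesenchyme, at 4.49 ± 0.19 (adjusted p = 9.1e-11), ACTA2, smooth muscle actin, at 3.53 ± 0.18 (adjusted p = 6.7e-10) and CDH11, a mesenchymal cadherin, at 3.28 ± 0.08 (adjusted p = 4.4e-13). Only 6 of the 12 were above each of the other gates in both libraries, these 3 among them. Of the other 6, TPM1 was at 703 and 709 CPM against 1751 and 1695 in the GABRP gate, MYL9 at 214 and 220 against 299 and 301 there, and PDGFRA at 45.2 and 44.9 against 45.6 and 69.5 in the SCRG1 gate. Of collagen receptors and matrix breakdown 9 of 15 rose, median 0.52, among them ITGA1 (4.10 ± 0.31, adjusted p = 7.7e-08), DDR2 (2.25 ± 0.11, adjusted p = 4.5e-10) and ITGA2 (1.90 ± 0.33, adjusted p = 0.0004), all receptors of collagen, while DDR1, the epithelial relative of DDR2, fell. Of the 9, 5 were above each of the other gates, ITGA2 narrowly at 11.7 and 19.1 CPM against 11.3 and 10.9 in the GABRP gate. TIMP1, also counted as higher, was at 213 and 219 CPM against 857 and 826 in the GABRP gate.

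The remaining collagens did not move as 1 group. Of other fibrillar collagens COL27A1 (1.5 ± 0.17, adjusted p = 6.8e-06) and COL11A1 (1.09 ± 0.11, adjusted p = 2.7e-06) rose. COL11A2 was lower, at 0.114 and 0.163 CPM, and 3 of 6 did not pass, median 0.15. COL11A2 passed the low-count filter only through the SCRG1 sums, which are on the other side here, so its call is no test. The SCRG1 gate was as high for COL11A1, at 52.4 and 41.1 CPM against 45.4 and 43.8, and in library 1 for COL27A1, at 22.3 and 8.42 against 21.2 and 21.3. Of collagens that sit on fibrils or form microfibrils 4 of 7 rose and COL9A1, a cartilage collagen, fell (-2.09 ± 0.23, adjusted p = 4.1e-06), median 1.10. The GABRP gate was lower still for COL9A1, at 2.60 and 3.82 CPM against 5.46 and 4.56. COL12A1 rose by 1.67 ± 0.18 (adjusted p = 4.7e-06) against that mean, but at 59.5 and 59.3 CPM it was under the 63.5 and 63.0 of the GABRP gate and above the 4.21 to 18.2 of the other 2. COL14A1 rose by 1.11 ± 0.24 (adjusted p = 0.0022), with library 2 alone giving 0.27, and at 9.55 and 6.19 CPM it overlapped with the 7.88 and 8.22 of the POU5F1 gate and the 3.88 and 9.47 of the SCRG1 gate.

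**Figure D4:**
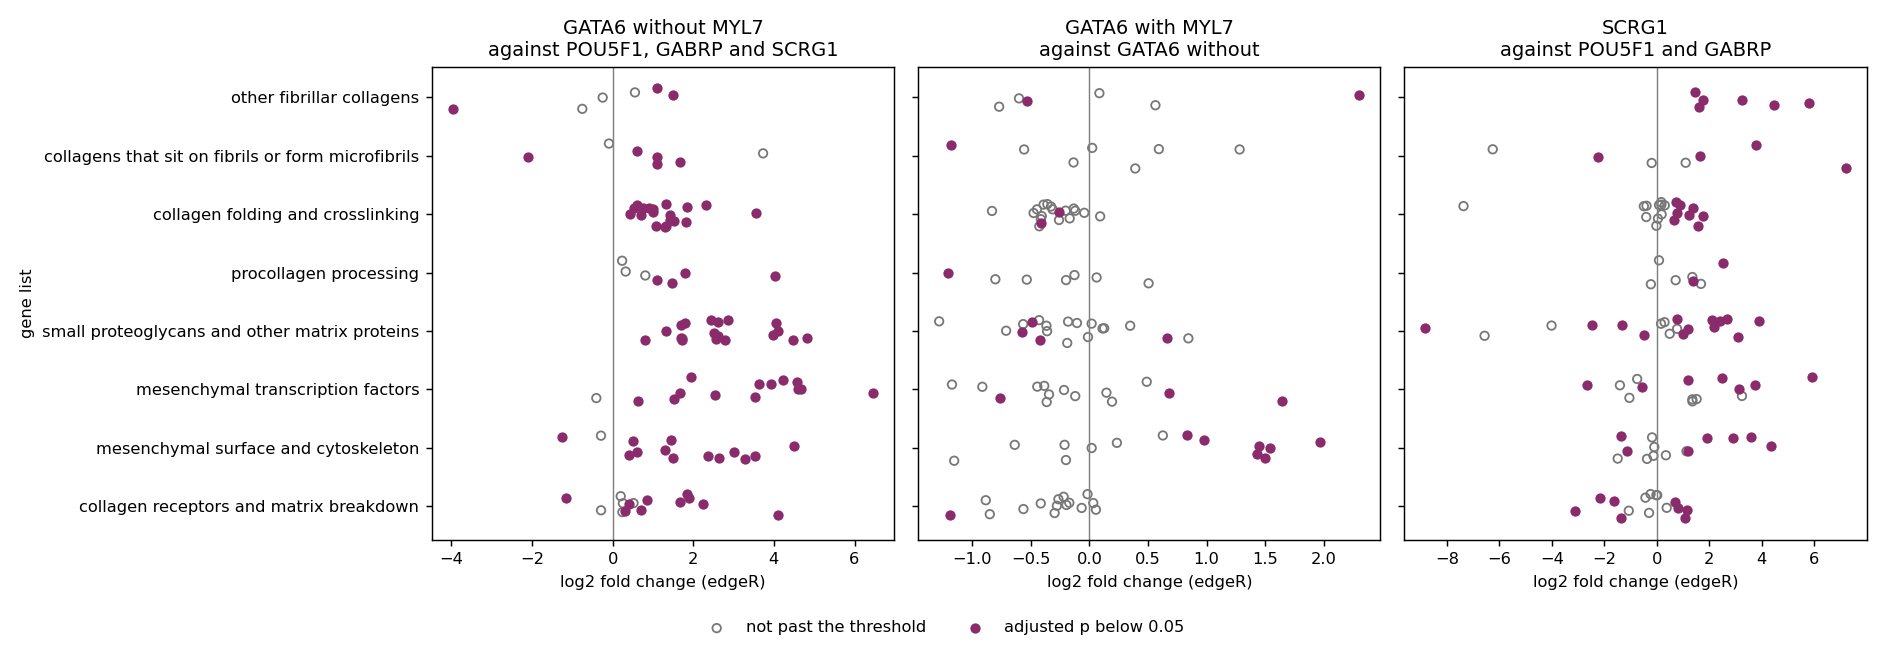
Log2 fold change from edgeR of each gene of 8 lists of collagen making, matrix and mesenchyme in 3 comparisons of gates, with a separate horizontal scale in each panel. Filled points passed an adjusted p of 0.05 and open points did not. In the left panel 81 of 101 genes are filled on the right of 0, in the middle panel 11, and in the right panel 42.

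GATA6-gated cells with MYL7 were set against those without. Of the 101 list genes 11 were higher and 10 lower, against 4.75% and 3.87% of all genes tested. The higher ones lay mostly in the surface and cytoskeleton list, which holds contractile genes: 7 of its 14 rose and none fell, median 0.73, with ACTA2 at 1.97 ± 0.20 (adjusted p = 2.1e-05), TPM1 at 1.5 ± 0.15 (adjusted p = 1.3e-05) and the cadherin CDH2 at 1.54 ± 0.14 (adjusted p = 5.5e-06). COL2A1, the main cartilage collagen, was at 57.5 and 44.3 CPM with MYL7 and 12 and 8.63 without (2.31 ± 0.21, adjusted p = 6.1e-06), in the direction opposite to COL1A1 and COL3A1. COL11A1 fell (-0.53 ± 0.15, adjusted p = 0.036), as did COL12A1 (-1.18 ± 0.19, adjusted p = 0.0013), PCOLCE2 (-1.21 ± 0.31, adjusted p = 0.023) and ITGA2 (-1.19 ± 0.31, adjusted p = 0.027).

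In the same comparison, folding and crosslinking genes changed little in size: P4HB (-0.26 ± 0.07, adjusted p = 0.04) and P3H1 (-0.42 ± 0.11, adjusted p = 0.03) fell and 17 of 19 did not pass, median -0.33. Of the other matrix proteins FBN2 rose (0.66 ± 0.10, adjusted p = 0.00091), and FN1 (-0.58 ± 0.12, adjusted p = 0.0052), TGFBI (-0.49 ± 0.14, adjusted p = 0.039) and MFAP2 fell. Of the transcription factors TBX18 (1.64 ± 0.38, adjusted p = 0.013) and HAND2 (0.68 ± 0.19, adjusted p = 0.038) rose, like TWIST1 in its levels, and SNAI1 fell (-0.77 ± 0.19, adjusted p = 0.021), by 1.15 in library 1 and 0.27 in library 2. The calls for COL11A1, P4HB, P3H1, FN1, TGFBI, SNAI1 and HAND2 were lost under 1 to 3 alternatives each, with adjusted p of 0.054 to 0.27 there.

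The SCRG1 gate, where COL1A2 and VIM were high and COL1A1 and COL3A1 were not, was set against the mean of the POU5F1 and GABRP gates. Of the 101 list genes 42 were higher and 13 lower, against 15.6% and 16.9% of all genes tested. In both libraries 39 of the 42 were above each of the other 2 gates, as were 2022 of all 2349 genes called higher. Out of genes tested, these are 39 of 101 list genes against 13.5% of all genes. The other fibrillar collagens were higher in 6 of 6 cases, median 2.50, with COL2A1 at 113 and 97.9 CPM against 3.54 to 5.12 (4.48 ± 0.21, adjusted p = 1.3e-09). COL11A2 and COL5A3, the remaining type V chain, passed the low-count filter only through the SCRG1 sums. They had to differ, so both are given by their levels with no test, although the 6 and the 42 include them. COL11A2 was at 28.1 and 40.0 CPM against 0.221 to 1.40. COL5A3 was at 1.94 and 5.26 CPM against 0.615 to 1.33, and its call was lost under 6 alternatives. COL9A1 (3.79 ± 0.20, adjusted p = 3.3e-09) and COL9A3 (7.20 ± 0.39, adjusted p = 6.1e-09) rose, and COL12A1 fell (-2.24 ± 0.43, adjusted p = 0.0011). COL9A3 was at 46.5 and 123 CPM, so the libraries differed, against 0.354 to 0.712. On the log2(CPM + 1) scale library 1 alone gave 4.8 for COL9A3 and library 2 alone 6.5. COL24A1, counted among the 6, rested on library 1, at 6.79 CPM, and had 0 UMIs in library 2. COL27A1 and COL16A1 passed as well, the latter at 9.69 and 17.9 CPM against 2.70 to 5.75.

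Collagen folding genes rose in 8 of 19 cases there, median 0.18, with PLOD1 (1.76 ± 0.24, adjusted p = 6.9e-05), FKBP10 (1.38 ± 0.12, adjusted p = 1.1e-06) and LOXL3 (1.56 ± 0.38, adjusted p = 0.0056). Of procollagen processing 2 of 7 rose, median 1.35, BMP1 (1.38 ± 0.19, adjusted p = 5.7e-05) and PCOLCE2 (2.53 ± 0.29, adjusted p = 1.2e-05). Of the other matrix proteins 9 of 19 rose and 4 fell, median 0.77, with FBN2 (3.08 ± 0.22, adjusted p = 1.1e-07) and FMOD higher (3.90 ± 0.60, adjusted p = 0.00016, at 2.91 and 6.32 CPM, with 1.62 from library 1 alone and 2.52 from library 2 alone on the log2(CPM + 1) scale), and MFAP5 at 0 UMIs, at least 1.9-fold lower in library 1 and 2.51-fold lower in library 2 than in the GABRP gate by the limit of 3 counts per library.

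Transcription factors rose in 5 of 14 cases and fell in 2, median 1.36: ZEB2 (5.90 ± 0.10, adjusted p = 3.9e-14), ZEB1 (3.75 ± 0.51, adjusted p = 5.9e-05) and SNAI1 (3.13 ± 0.23, adjusted p = 1.3e-07), all repressors of epithelial genes, were higher. The receptor PDGFRA (4.36 ± 0.23, adjusted p = 4.7e-09), PDGFRB (3.60 ± 0.57, adjusted p = 0.00022) and CDH11 (2.89 ± 0.14, adjusted p = 2.5e-09) were among 5 of 14 surface and cytoskeleton genes that rose, median 0.13, with 2 lower. Of collagen receptors and matrix breakdown 4 of 15 rose and 4 fell, median -0.24, with ITGA2 (-3.12 ± 0.88, adjusted p = 0.014) and the protease inhibitors TIMP1 (-2.18 ± 0.15, adjusted p = 5.2e-08) and TIMP2 (-1.62 ± 0.19, adjusted p = 1.3e-05) lower, although TIMP1, at 50.4 and 52.6 CPM, overlapped with the 63.0 and 46.4 of the POU5F1 gate. The gate rests on 36 cells a library, and without TMM scaling the split over all genes was 3140 higher of 5161 called in place of 2349 of 4895, with the median of all genes moved by 0.12. Without a low-count filter it was 1791 of 4523, and by DESeq2 2569 of 4903, so whether more genes were higher or lower there depends on the setting.

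Barcodes of at least 1000 UMIs below the cell thresholds, 3108 and 3661, had no part in choosing the members, though they come from the same 2 libraries. Those with at least 2 UMIs of only 1 of the gate genes GATA6 (80 and 48), POU5F1 (137 and 280), GABRP (300 and 317) and SCRG1 (11 and 17) were summed, and the GATA6 sums were tested against the mean of the other 3 on 8 sums by edgeR's quasi-likelihood test. MYL7 was not gated in these barcodes, so their GATA6 sums are not split by MYL7 as those of the larger cells are. COL5A1, DCN and LUM passed the low-count filter only through the GATA6 sums, so they had to differ and are given by their levels with no test. The other 7 members reached the filter's limit without those sums, and each was higher, while 17.7% of the 9011 genes that did so were and 20.3% of all 9807 genes tested. The median log2 fold change over all genes was 0.26, and by DESeq2, which moved it by 0.20, 1993 of 2609 called genes were higher in place of 1987 of 3086. COL3A1 was at 1772 and 1662 CPM against 0 to 72.7 in the other sums (5.87 ± 0.20, adjusted p = 2e-43), and COL1A2 at 876 and 1137 against 9.79 to 177 (4.53 ± 0.18, adjusted p = 4.6e-38). COL1A1 was at 629 and 764 against 11.3 to 170 CPM (4.65 ± 0.21, adjusted p = 3.2e-35). DCN was at 519 and 508 CPM against 0 to 11.8, LUM at 225 and 162 against 0 to 11.8, and COL5A1 at 235 and 173 against 0 to 10.7. Of the 7, VIM moved least, 1142 and 919 CPM against 37.0 to 2158 (1.84 ± 0.16, adjusted p = 5.8e-17), and its 2 SCRG1 sums, 2158 and 1855, were above the GATA6 sums as in the larger cells. COL1A2 and COL1A1 had 6 and 7 UMIs in the SCRG1 sum of library 1 and 15 and 1 in library 2, so the parting of the type I chains showed in library 2 only.

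In the bulk pESC libraries, where FPKM is scaled by transcript length and levels can be set side by side between genes, VIM was highest, with an FPKM of 40.0 in the library named IVFP25, of 60.6 in that named PA_4P7 and of 28.6 in that named PAP25 (43.1 ± 16.2 SD, n = 3). It stood at percentiles 87.5 to 94.2 of the genes above 0. The library names differ in the origin and passage they give, so each SD may hold these differences as well as technical spread. COL5A1 followed with 5.71, 7.1 and 11.9 FPKM (8.23 ± 3.24), then COL1A1 with 4.47, 3.60 and 3.92 (4.00 ± 0.438) and COL1A2 with 1.37, 1.93 and 2.31 (1.87 ± 0.472). The ranges of these 4 genes did not overlap. COL1A1 was above COL1A2 in 3 of 3 libraries.

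COL5A2 was at 0.402, 0.327 and 0.265 FPKM in pESCs. TWIST1 was listed at 0.0406, 0 and 0.352, DCN at 0.0556, 0 and 0.215, LUM at 0.0719, 0.115 and 0, COL3A1 at 0.0159, 0 and 0.0182, and POSTN at 0 in all 3 libraries. For comparison POU5F1 measured 639, 506 and 432 FPKM, and 38.55% to 39.71% of 29886 genes reached 1 FPKM. Of the members, 4 of 10 reached 1 FPKM in all 3 libraries and none of the other 6 did in any. In bulk samples fewer cells of a type and less RNA per cell cannot be told apart, and the part of feeder RNA was not tested. The FPKM and the UMI counts were normalized separately and are not compared.

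**Figure D5:**
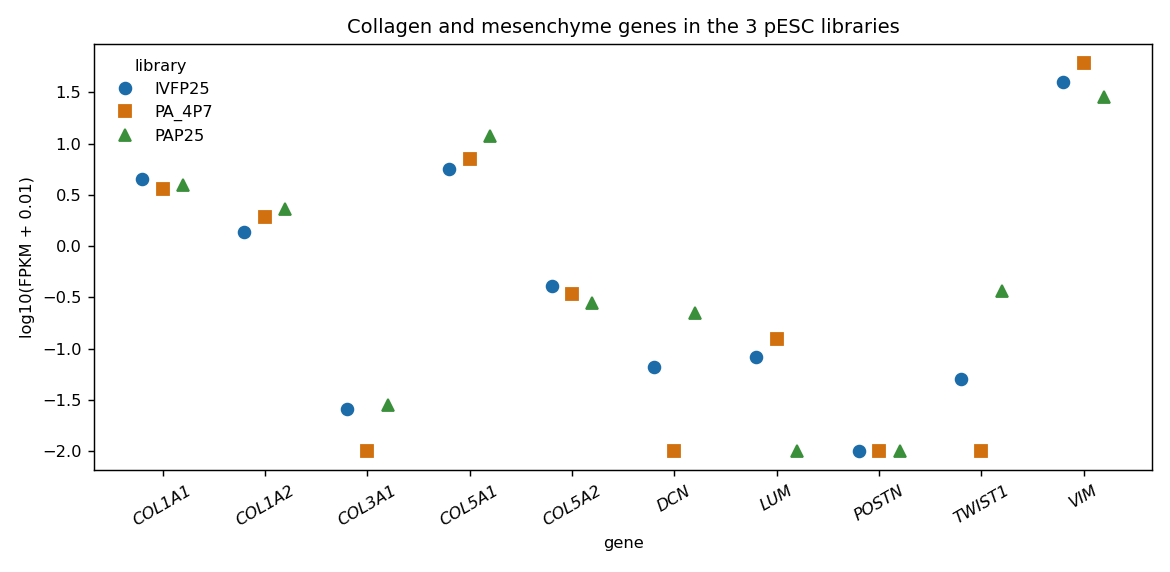
FPKM of each member in the 3 pESC libraries, as log10(FPKM + 0.01), with a value listed at 0 plotted at -2. VIM lies between 28.6 and 60.6 FPKM, COL5A1, COL1A1 and COL1A2 between 1.37 and 11.9, and the other 6 members below 1.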

How the data were processed

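The members and the gene lists were chosen with earlier results of these data known. The deposited blastoid files hold unfiltered UMI counts for all barcodes, which the authors made with Cell Ranger 7.1.0 on susScr11, per the file headers and the submitters' processing notes. For pESCs the authors trimmed reads with Trim Galore 0.6.4, mapped them to susScr11 with HISAT2 2.2.1 and computed the deposited FPKM per RefSeq transcript with StringTie 2.2.1. Labels and methods name different kits and sequencers. FPKM were summed per gene symbol here, and the depth of these libraries is unknown. The FPKM columns carry no replicate number.

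Cells held 254038630 UMIs in library 1 and 264987746 in library 2. UMIs were summed per library and gate (Python 3.11.15, scanpy 1.11.5), filtered by filterByExpr, scaled by TMM and compared in edgeR 4.0.16 (quasi-likelihood, R 4.3.3), with all 6 gates in 1 fit and no covariate. Genes passed at an adjusted p below 0.05. The SE of a fold change is its absolute log2 value divided by the square root of the F statistic of its test. It restates that test and is not a spread measured between the libraries. Only genes outside the members were read from this fit. The script was tested on simulated data. Doublets were scored with Scrublet and kept. The scaling, the low-count filter, the gate limits, the empty droplets, a mitochondrial filter, doublet removal and the library as a block were varied. Of the 8 lists, the 3 genes with the largest absolute fold change past the threshold and of 1 sign in both libraries were named, beside all members. S100A4, DDR1, ADAMTS3, MFAP2, COL16A1, COL24A1 and the genes named for overlapping a comparison gate were named after their values were seen. Of the listed genes COL6A1 has no row under that symbol and was not analysed here, and CCN1 and CCN2 were read under CYR61 and CTGF. The sequence before COL3A1 is not reported here. Of 30029 gene names 29862 (99.44%) matched the annotation.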

Additional observations from a re-analysis of the deposited data

How the results depend on the processing

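The number of genes past the threshold stayed within 1.5 times the reported one in the 4 comparisons under all alternatives tried. With the library as a replicate block the counts were 5850 for GATA6-gated cells without MYL7, in place of 5478, 1576 for those with MYL7 against without, in place of 1295, 5034 for the SCRG1 gate, in place of 4895, and 3059 for barcodes of low RNA content, in place of 3086. Sums of the same library deviated together weakly (correlations of 0.0026 to 0.229 over 15 pairs of gates, 3 of them over 0.1). The counts ranged from 4417 to 5988, from 972 to 1937, from 4258 to 5161 and from 2609 to 3115. For the SCRG1 gate the split was 2349 higher of 4895, 3140 of 5161 without TMM factors, 2569 of 4903 by DESeq2 1.42.0 and 1791 of 4523 without a low-count filter, for cells with MYL7 713 of 1295 and 953 of 1937 with the looser gate, and for barcodes of low RNA content 1987 of 3086 and 1993 of 2609 by DESeq2, which moved the median of all genes by 0.20. The cause was not tested. Leaving out 1 library left no residual degrees of freedom, so it gave fold changes only. On the log2(CPM + 1) scale, which understates the folds of low genes, library 1 alone and library 2 alone gave 2.07 and 1.25 for LOX, 1.13 and 1.7 for COL27A1, 1.31 and 0.27 for COL14A1 and 0.72 and 1.18 for THBS2 in GATA6-gated cells without MYL7, -1.15 and -0.27 for SNAI1 in cells with MYL7, and in the SCRG1 gate 0.54 and 1.69 for COL5A3, 1.81 and 0.74 for LOXL3, 1.62 and 2.52 for FMOD, 2.73 and 1.53 for PDGFRB and -3.13 and -1.62 for ITGA2. Members above empty droplets in the SCRG1 gate numbered 3 in both libraries together and 4 to 6 in single libraries. The majority direction over all genes thus turned in the SCRG1 gate without TMM factors and by DESeq2, and in cells with MYL7 with the looser gate. No fold change of a gene named by the rule, or of a member in barcodes of low RNA content, changed sign. Under some alternatives 19 calls of single genes were lost, 6 of them for COL5A3 and the others for COL11A1, P3H1, P4HB, FN1, TGFBI, SNAI1 and HAND2 in cells with MYL7. A stricter gate (5 UMIs, 200 CPM) raised COL1A1 in GATA6-gated cells without MYL7 to a mean of 721 CPM and a looser one (2 UMIs, 50 CPM) lowered it to 414. The 36 cells of the SCRG1 gate limit its precision.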

Other observations

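Collagen-rich cells outside the gates were counted. Cells that passed no gate made up 128 of 601 cells with at least 1000 CPM of COL1A1, COL1A2 and COL3A1 in library 1 and 89 of 447 in library 2, while 3798 of 4150 and 4760 of 5085 ungated cells had under 100 CPM. All 10 members were seen together, at equal depth, in 20 and 7 ungated cells and in 38 and 19 GATA6-gated cells without MYL7. Among empty droplets the level of COL1A2 in library 1 was 62.4 CPM at 1 to 50 UMIs, 75 at 10 to 100 and 124 at 100 to 500, and in library 2 it was 42.3, 43.5 and 54.9 CPM.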
